A study of Rattus norvegicus with 9 samples.

Results

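The 10 genes described here encode the coactivators, nuclear receptors and DNA-binding factors that set how much of the mitochondrial machinery a heart cell makes. They were the rows of the deposited expression table whose gene name was Ppargc1a, Ppargc1b, Perm1, Esrra, Esrrb, Esrrg, Nrf1, Gabpa, Tfam or Tfb2m. Each name matched 1 row, so they make up 10 of 35843 genes. Groups Sham, MI and DAPA held 3 samples each, and all were adult male Sprague-Dawley (SD) rats studied at day 28. In group MI the left anterior descending coronary artery was ligated for good and saline was given by gavage every day. Group DAPA (DAPA(1st) in the labels) had the same ligation and received dapagliflozin, an inhibitor of the renal sodium-glucose cotransporter SGLT2, at 1 mg/kg each day from day 1. Group Sham had the operation without ligation and received saline. RNA was extracted from the left ventricle. The study's methods say that its molecular work mainly used the infarct border, with the matching place in group Sham, and do not state the site for these libraries in particular. No rat without ligation received DAPA, so an effect of the drug on the healthy heart was not measured. The sample labels list a pair of numbered items for each sample, and what these are is not given. Each sample is taken as 1 rat below, which the labels do not state.

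PGC-1α (Ppargc1a) and PGC-1β (Ppargc1b) do not bind DNA. They are recruited by the estrogen-related receptors ERRα, ERRβ and ERRγ and by NRF1 and GABP (NRF2), and through these they switch on nuclear genes for fatty acid oxidation, the citric acid cycle and respiration. NRF1 and GABP in turn act on Tfam and Tfb2m, whose proteins enter the mitochondrion and drive transcription of its own DNA. The heart depends on this circuit for its supply of ATP.

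Values are FPKM, that is fragments scaled by transcript length and by a denominator for each library, and are therefore comparable between genes. Their low values are whole multiples of the value of 1 read, which gave back the reads of each gene. The libraries held between 13597239 and 17210909 reads. RNA of the mitochondrial genome took 61.1 to 66.9% of the reads in group Sham, 7.07 to 19.1% in group MI and 17.5 to 32.0% in group DAPA. Reads left for all other genes were 5702454 to 6570698 in group Sham, 12635945 to 13171891 in group MI and 11440726 to 12082280 in group DAPA, so the 10 genes were counted least deeply in group Sham. The denominator did not follow the number of reads. Up to a common factor it was 0.56 to 0.678 times the recovered reads in group Sham, 1.31 to 1.42 times in group MI and 1.04 to 1.35 times in group DAPA. As deposited, the values of the typical gene are level between libraries. If each library is instead set to the same FPKM sum, the median of all genes moves by 1.31 (log2) in MI vs. Sham, -0.35 in DAPA vs. MI and 0.99 in DAPA vs. Sham, and changes below are relative to the typical gene.

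Cell type markers moved with the groups as well. The 13 cardiomyocyte markers found, of 14 looked for, summed to 7639 to 11188 FPKM in group Sham, 2425 to 11698 in group MI and 9113 to 18861 in group DAPA, so the tissue labelled heart carried its defining genes in every rat. MI replicate 2 had the lowest sum. The 10 fibroblast markers summed to 451 to 732, 3817 to 7435 and 2356 to 4091 FPKM, and the 8 macrophage markers to 83.0 to 344, 1340 to 2287 and 740 to 1234 FPKM, in the same order. The 6 endothelial markers found, of 7, summed to 845 to 949, 230 to 300 and 318 to 359 FPKM. The 7 T cell markers summed to 11.2 to 21.9, 60.2 to 251 and 32.1 to 63.7 FPKM, and the 6 B and plasma cell markers found, of 7, to 6.07 to 12.6, 35.8 to 3822 and at most 16.6. The 4 atrial markers summed to 6.06 to 25.6, 9.59 to 64.8 and 60.3 to 132 FPKM, and their estimates were positive for 4 of 4 in DAPA vs. MI. Adipocyte markers (6) summed to 17.0 to 26.9, 47.5 to 220 and 32.3 to 62.1 FPKM, and smooth muscle markers (5) to 393 to 1420, 506 to 693 and 473 to 712. What part these shifts have in the gene differences below was not tested. Of these lists no marker was at 0 in every rat, and Lep, Ucp1 and Bmp10 stayed under 1 FPKM throughout.

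By group means Esrra and Tfam were the most abundant of the 10 genes and Esrrb the least, although the rats of group Sham overlapped between Tfam and Tfb2m and those of groups MI and DAPA between Esrrb and Ppargc1a. Group Sham averaged 21.9 ± 7.34 FPKM for Esrra and 18.3 ± 3.14 for Tfam (SD, n = 3), whose ranges overlapped. The coactivators Ppargc1b (1.64 ± 0.665 FPKM) and Ppargc1a (1.42 ± 0.557) and the receptor Esrrg (1.37 ± 0.232) were low in group Sham and overlapped each other. Esrrb stood at 0.148 ± 0.128 FPKM. In group MI the order of the middle genes differed, with Gabpa (7.88 ± 1.72), Tfb2m (7.51 ± 1.77) and Nrf1 (6.42 ± 0.755) overlapping, whereas in group Sham Tfb2m (17.0 ± 2.69) lay above Nrf1 (7.95 ± 0.966) with no overlap.

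**Figure D1:**
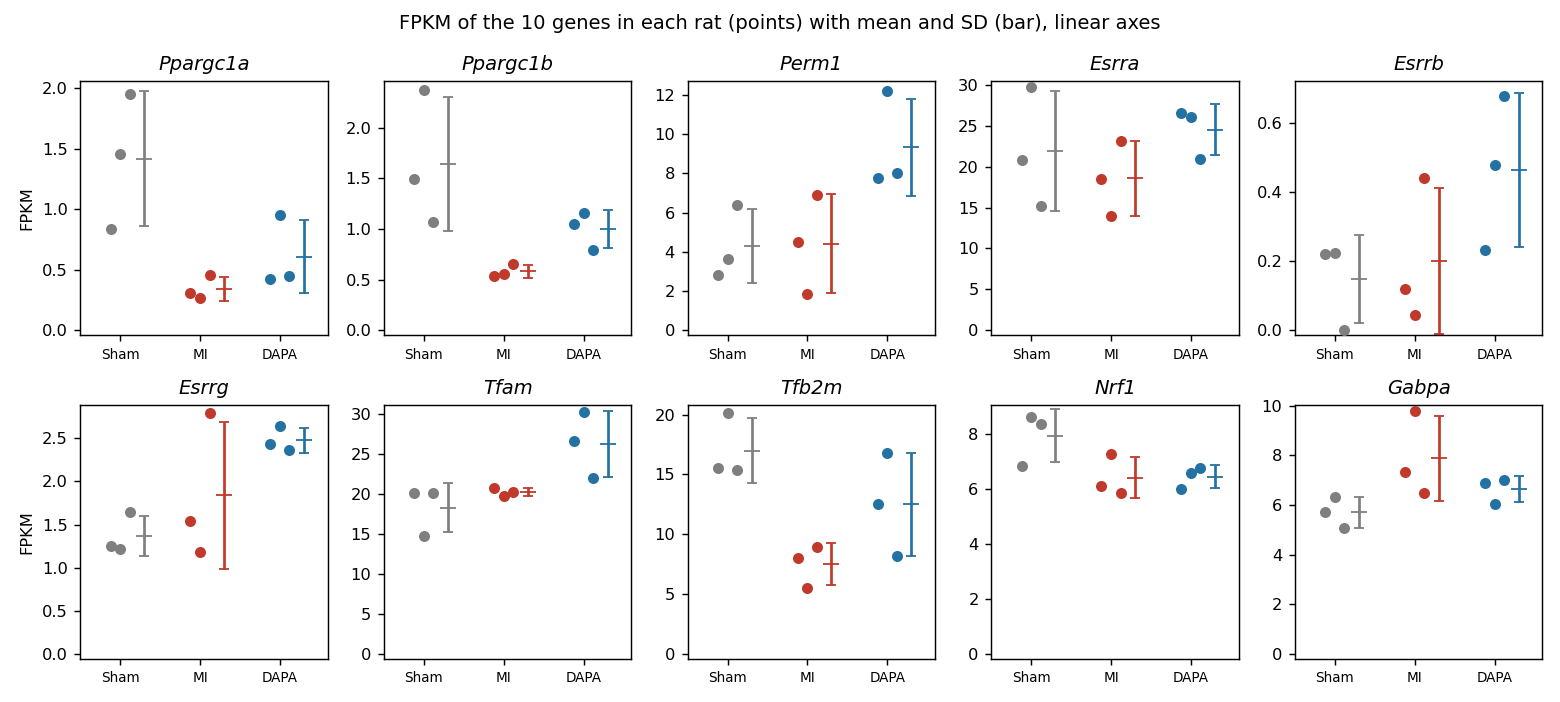
FPKM of the 10 genes in each of the 9 rats (points, left to right replicates 1 to 3) with the group mean and SD beside them, on linear axes that differ between panels. Ppargc1a, Ppargc1b and Tfb2m lie lower in group MI than in group Sham without overlap, and Perm1 and Tfam lie higher in group DAPA than in either other group without overlap. With each library set to the same FPKM sum, the sign of the Ppargc1b and Tfb2m differences between MI and Sham turns. The Ppargc1a difference keeps its sign but ranges from -1.95 to -0.197 (log2) over the alternatives run.

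The genes were first asked about as a group. Differences were tested by limma on log2(FPKM + 1) over all genes with at least 1 FPKM in at least 3 of the rats compared, and a gene was called at an unadjusted p under 0.05 with a log2 fold change beyond 1 in size. In MI vs. Sham 8 of the 10 genes could be tested. Of these 1 was called lower, Tfb2m, and 0 higher, while 10.3% of all 13485 genes tested were called lower and 12.1% higher. At p under 0.05 alone 2 were lower and 0 higher, beside 24.4% and 24.5% of all genes. The groups did not overlap for 3 of the 8, beside 54.6% of all genes, so these shares were near or below those of the whole transcriptome. Ppargc1b, which is among the 2 and the 3, passed the filter there only through the Sham rats.

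In DAPA vs. MI 7 genes could be tested, and Perm1 alone was called, higher. The same call was made for 0.951% of 13251 genes, and the call in the other direction for 1.11%. At p under 0.05 alone the count for the 7 genes was again 1 higher and 0 lower, beside 4.59% and 3.9% of all genes. For 2 of the 7, Perm1 and Tfam, the groups did not overlap, beside 13.8% of all genes. After Benjamini-Hochberg adjustment the smallest limma p among the 7 was 0.558. The estimates were positive for 6 of the 7 with a median log2 fold change of 0.35, beside a median of -0.02 over all genes tested.

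In DAPA vs. Sham, which shares its rats with both other comparisons, 8 genes could be tested. Perm1 was called higher and 0 genes lower, where 9.54% and 8.16% of 13359 genes were. At p under 0.05 alone 3 were higher (Perm1, Esrrg and Tfam) and 0 lower, beside 21.1% and 20.4% of all genes. For 4 of the 8, Perm1, Esrrg, Tfam and Nrf1, the groups did not overlap, beside 46.5%.

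**Figure D2:**
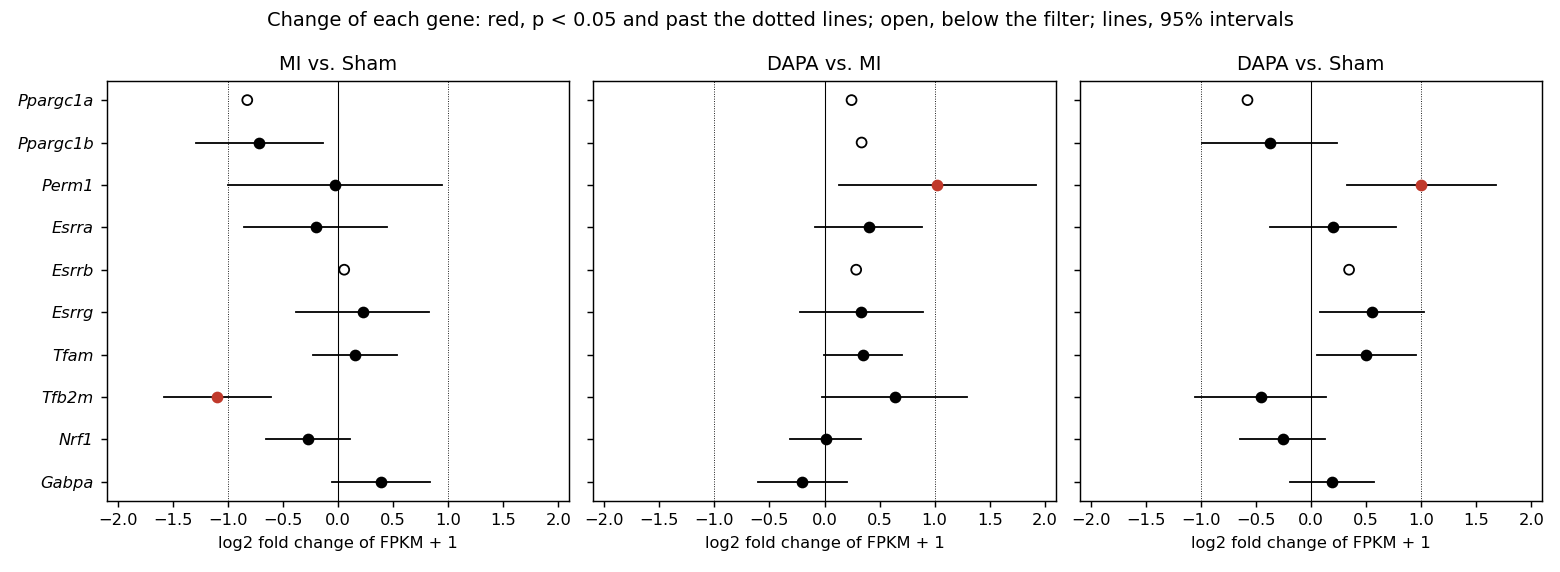
Log2 fold change of FPKM + 1 for each of the 10 genes (rows) in the 3 comparisons (panels), with 95% confidence intervals from limma. Red points passed both thresholds (Tfb2m at -1.09 in MI vs. Sham and Perm1 at 1.03 and 1.00 in the panels with DAPA), dotted lines mark the fold threshold, and open points are genes below the expression filter, shown without an interval; with each library set to the same FPKM sum the Tfb2m value in MI vs. Sham becomes 0.33, below the median of all genes.

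The PGC-1 coactivators were low in all groups and lowest in group MI. Ppargc1a was at 0.838, 1.46 and 1.95 FPKM in group Sham, 0.303, 0.269 and 0.457 in group MI, and 0.421, 0.955 and 0.444 in group DAPA. Every MI rat lay below every Sham rat, and the DAPA-treated rats overlapped both groups, with replicate 2 standing above the other two. The mean in group MI was 0.242 of that in group Sham. Only 13 to 47 reads per library fell on this gene. Only Sham replicates 2 and 3 reached 1 FPKM, so it did not pass the filter in any comparison. The exact permutation test on log2(FPKM + 1) gave p = 0.1 for MI vs. Sham, the smallest p that 3 rats against 3 allow. Although below the filter, the gene was added to a limma-voom fit of the recovered reads for its value, and was not counted as tested there. This fit gave a log2 fold change of -1.95 (limma-voom adjusted p = 0.0211). Limma on all genes without the filter gave an adjusted p of 0.0465. Over the alternatives run, the Ppargc1a difference ranged from -1.95 to -0.197 in MI vs. Sham and from -1.23 to -0.0236 in DAPA vs. Sham. The exact permutation test gave p = 0.3 for DAPA vs. MI, where the ratio of means was 1.77, and p = 0.2 for DAPA vs. Sham.

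Ppargc1b, the paralog with a shared part in basal mitochondrial gene expression, was at 1.49, 2.37 and 1.07 FPKM in group Sham, 0.536, 0.552 and 0.652 in group MI, and 1.05, 1.16 and 0.792 in group DAPA. The 3 MI rats were close together and lay below every rat of the other groups, and the DAPA-treated rats overlapped with group Sham at its lower end. The log2 fold change in MI vs. Sham was -0.71 ± 0.245 (SE), which missed the fold threshold on the log2(FPKM + 1) scale (limma adjusted p = 0.055). The gene passed the filter there only through the Sham rats. In DAPA vs. MI it was below the filter, with a ratio of means of 1.72 and an exact permutation p of 0.1. Between 31 and 80 reads per library supported these values. In whole tissue, fewer cardiomyocytes and less RNA in each cardiomyocyte cannot be told apart, for these and for all genes below.

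Perm1, a striated muscle factor that is induced by PGC-1 and ERR and acts with them on genes for oxidative metabolism, was at 2.8, 3.63 and 6.41 FPKM in group Sham, 4.48, 1.86 and 6.92 in group MI, and 7.79, 12.2 and 8.0 in group DAPA. All DAPA-treated rats exceeded every other rat, the nearest being MI replicate 3, whereas Sham and MI rats overlapped throughout. Perm1 rose in DAPA vs. MI by 1.03 ± 0.378 (log2, SE; 95% confidence interval 0.128 to 1.92), a ratio of means of 2.11, with a limma p of 0.0306 and an adjusted p of 0.558. Against group Sham the rise was 1.00 ± 0.29 with an adjusted limma p of 0.0375 and a ratio of means of 2.18. MI and Sham differed by -0.02 ± 0.412. The rise over MI rested on single rats. Without MI replicate 2, the rat with the lowest Perm1 and the lowest cardiomyocyte markers, it was 0.62, and without DAPA replicate 2 it was 0.83. The call was also lost without MI replicate 1 (1.09) and without DAPA replicate 3 (1.11). The call against Sham was lost without Sham replicate 1 (0.79), without Sham replicate 2 (0.94) and without DAPA replicate 2 (0.81).

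The rats with the lowest and the highest Perm1, MI replicate 2 and DAPA replicate 2, also had the lowest and the highest cardiomyocyte markers. The mean log2(FPKM + 1) of the 13 markers was 7.81, 8.12 and 8.38 in the Sham rats, 7.66, 6.46 and 8.56 in the MI rats, and 8.92, 9.19 and 8.28 in the DAPA-treated rats. It differed by 1.24 between DAPA and MI with overlapping groups (two-sided exact permutation p = 0.2), beside 1.03 for Perm1 on the same scale and 1.22 for Perm1 by limma-voom on reads. Taken relative to the marker mean of the same rat, Perm1 differed by -0.21 between these groups (exact permutation p = 0.5). It differed by 0.31 between DAPA and Sham and by 0.52 between MI and Sham (exact permutation p = 0.2 for each). Since 1 is added before the logarithm, a low gene moves less on this scale than the abundant markers, and with 0.1 added in its place the Perm1 value in DAPA vs. MI was -0.04. Without DAPA replicate 1 it was -0.0428 and without MI replicate 2 -0.0603, and without MI replicate 3 and DAPA replicate 3 it was -0.38 each. The smallest adjusted p over the 30 comparisons of this kind (10 genes, 3 comparisons) was 0.4 by exact permutation.

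**Figure D3:**
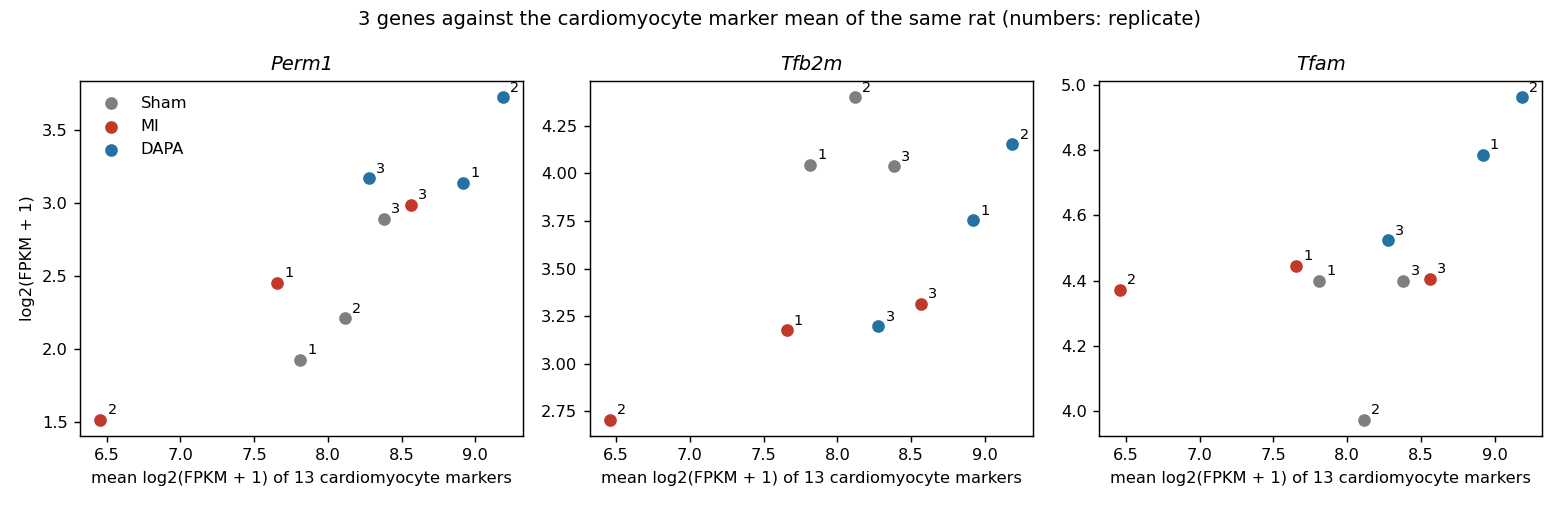
Log2(FPKM + 1) of Perm1, Tfb2m and Tfam (vertical axes) against the mean log2(FPKM + 1) of 13 cardiomyocyte markers in the same library (horizontal axes), 1 point for each of 9 rats, with the replicate number beside it. MI replicate 2 lies furthest left at 6.46 and has the lowest Perm1 and Tfb2m, the Sham rats lie above MI replicates 1 and 3 in Tfb2m at similar marker levels, and Tfam spans little over the marker range except in DAPA replicates 1 and 2 and Sham replicate 2.

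Of the estrogen-related receptors, Esrra (ERRα) was abundant and did not pass the test in any comparison. It was at 20.8, 29.7 and 15.2 FPKM in group Sham, 18.5, 14.0 and 23.2 in group MI, and 26.6, 26.1 and 20.9 in group DAPA, and all 3 groups overlapped. Its log2 fold change was -0.20 in MI vs. Sham, 0.40 (95% confidence interval -0.083 to 0.889) in DAPA vs. MI, and 0.20 in DAPA vs. Sham. Changes of up to 0.889 in the treated rats therefore lie within its interval.

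Esrrg (ERRγ), the isoform with high constitutive activity that is tied to the oxidative program of the postnatal heart, was at 1.25, 1.22 and 1.64 FPKM in group Sham, 1.54, 1.18 and 2.8 in group MI, and 2.43, 2.64 and 2.36 in group DAPA. The DAPA-treated rats all exceeded the Sham rats and were close together, but MI replicate 3 exceeded them. Against group Sham the log2 fold change was 0.56 ± 0.202 (SE), with a ratio of means of 1.81 and a limma adjusted p of 0.077. It was 0.22 in MI vs. Sham and 0.33 in DAPA vs. MI.

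Esrrb (ERRβ), best known from the placenta and pluripotent cells, was near the limit of detection. It was at 0.22, 0.224 and 0 FPKM in group Sham, 0.119, 0.0435 and 0.441 in group MI, and 0.233, 0.478 and 0.679 in group DAPA, which stood for between 0 and 16 reads. In Sham replicate 3 a count of 0 allows up to 0.262 FPKM (3 reads, counting error only). The DAPA-treated rats lay above the Sham rats (exact permutation p = 0.1) and overlapped the MI rats (p = 0.2 by the same exact test), and no fold is given at this depth.

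Nrf1, the factor that binds palindromic CGCATGCG elements in promoters of respiratory genes, was at 6.85, 8.64 and 8.37 FPKM in group Sham, 6.12, 7.28 and 5.86 in group MI, and 6.0, 6.59 and 6.79 in group DAPA. Sham and MI overlapped, and the DAPA-treated rats lay just below all Sham rats. Its log2 fold changes were -0.27, 0.01 and -0.26 in MI vs. Sham, DAPA vs. MI and DAPA vs. Sham, and none passed the test.

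Gabpa, the DNA-binding ETS subunit of GABP, was at 5.72, 6.33 and 5.08 FPKM in group Sham, 7.35, 9.81 and 6.48 in group MI, and 6.87, 6.06 and 7.01 in group DAPA. The MI rats lay above the Sham rats without overlap, and the DAPA-treated rats overlapped both. The log2 fold change in MI vs. Sham was 0.39 ± 0.188 (SE; limma adjusted p = 0.14). It was -0.20 in DAPA vs. MI and 0.19 in DAPA vs. Sham.

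The quotient of both factors within a rat hardly depends on how libraries are scaled. Gabpa over Nrf1 was 0.835, 0.733 and 0.607 in group Sham, 1.2, 1.35 and 1.11 in group MI, and 1.14, 0.92 and 1.03 in group DAPA. Nrf1 was thus the more abundant transcript in every Sham rat and Gabpa in every MI rat, with the DAPA-treated rats above all Sham rats. The log2 ratio differed by 0.66 in MI vs. Sham, 0.45 in DAPA vs. Sham and -0.21 in DAPA vs. MI. The exact permutation p was 0.1 for both comparisons with Sham, the smallest possible, and 0.45 after Benjamini-Hochberg adjustment over the 18 ratio comparisons made.

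Tfam and Tfb2m act on the mitochondrial genome. Tfam coats and bends the DNA at its promoters, and Tfb2m opens the promoter for the mitochondrial RNA polymerase. Tfam was at 20.1, 14.7 and 20.1 FPKM in group Sham, 20.8, 19.7 and 20.2 in group MI, and 26.6, 30.2 and 22.0 in group DAPA. The DAPA-treated rats all exceeded every other rat, and Sham and MI overlapped. The log2 fold change was 0.35 ± 0.149 (SE) over MI, with a ratio of means of 1.3 and a limma adjusted p of 0.558, and 0.50 ± 0.192 over Sham, with a ratio of 1.44 and a limma adjusted p of 0.0884. MI and Sham differed by 0.15.

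Tfb2m was at 15.5, 20.1 and 15.4 FPKM in group Sham, 8.04, 5.53 and 8.96 in group MI, and 12.5, 16.8 and 8.18 in group DAPA. All MI rats lay well below all Sham rats, and the DAPA-treated rats were spread between, with replicate 3 among the MI rats and replicate 2 among the Sham rats. Tfb2m fell by 1.09 on the log2 scale in MI vs. Sham (SE 0.207, 95% confidence interval -1.58 to -0.607, limma adjusted p = 0.00706), to 0.441 of the Sham mean, but with each library set to the same FPKM sum the value was 0.33 and, relative to the median of all genes there, -0.98. Without Sham replicate 2 it was -0.97 and without MI replicate 2 -0.91, both short of the fold threshold. The markers of cardiomyocytes differed by -0.55 between MI and Sham (exact permutation p = 0.6). Relative to these markers Tfb2m differed by -0.55 (exact permutation p = 0.3, groups overlapping), which was -0.17 without MI replicate 3 and -0.92 without MI replicate 2. In DAPA vs. MI the log2 fold change was 0.64 ± 0.277 (limma adjusted p = 0.558), with a ratio of means of 1.66, and against Sham it was -0.46.

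Within a rat the pair came apart. Tfb2m over Tfam was 0.77, 1.37 and 0.768 in group Sham, 0.386, 0.281 and 0.443 in group MI, and 0.471, 0.555 and 0.372 in group DAPA. Every ligated rat, treated or not, lay below every Sham rat, and the MI and DAPA-treated rats overlapped. The log2 ratio differed by -1.25 in MI vs. Sham and -0.96 in DAPA vs. Sham (exact permutation p = 0.1 and 0.45 adjusted for each), and by 0.29 in DAPA vs. MI (exact permutation p = 0.3). The ratios Ppargc1a/Ppargc1b, Perm1/Esrra, Esrrg/Esrra and Esrrb/Esrrg overlapped between groups in all 3 comparisons.

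**Figure D4:**
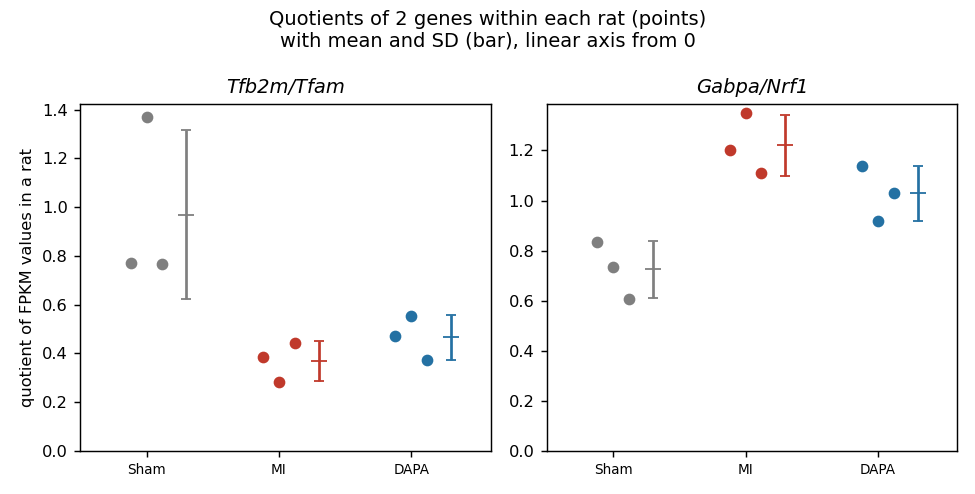
Quotient of the FPKM values of Tfb2m and Tfam (left) and of Gabpa and Nrf1 (right) within each rat (points), with the group mean and SD beside them, on linear axes from 0. Sham rats lie at 0.768 to 1.37 for Tfb2m/Tfam against 0.281 to 0.443 in MI rats, and at 0.607 to 0.835 for Gabpa/Nrf1 against 1.11 to 1.35.

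The promoters of the 10 genes, 300 bases around each transcription start and 13 windows in all (RefSeq, GRCr8), were searched on both strands for CGCATGCG (the NRF1 core), CCGGAAGT (an ETS site of the kind GABPA binds) and TCAAGGTCA (the ERR response element). No match overlapped another. Matches lay in the windows of the following 3 genes only, and all matches are shown. The motif is in capitals, and each sequence is written 5′ to 3′ on the strand of the gene.
Tfb2m: taggtcgttCGCATGCGccattcgta
Gabpa: tgcactgtaCGCATGCGtgctttggc
Tfam: tgctgcagaCCGGAAGTctgggcctc
The Tfb2m stretch is chr13:93828624-93828649 on the minus strand, with the motif beginning 46 bases before the start of transcription. The Gabpa stretch is chr11:37375254-37375279 on the plus strand and its motif spans the start. The Tfam stretch is chr20:17355308-17355333 on the plus strand, with the motif 56 bases before the start. Of all 33469 promoter windows, 1.66% held the NRF1 core, 3.81% the ETS site and 0.433% the ERR element. A match is a description of the letters and not a bound site, and Tfb2m and Gabpa, which share the NRF1 core, had log2 fold changes of -1.09 and 0.39 in MI vs. Sham.

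Several of the 10 genes varied together over the 9 rats, which carry the group differences too. On log2(FPKM + 1) Pearson's r was 0.884 between Ppargc1b and Tfb2m, 0.819 between Ppargc1a and Tfb2m, and 0.891 between Perm1 and Esrrg. Gabpa ran against Tfb2m (r = -0.807) and Ppargc1a (r = -0.776). Of 12562 other genes tested in all comparisons, the patterns most like that of Tfb2m were those of Scand1 (r = 0.987), Mecr (0.987), a locus without a name (0.986), Bloc1s1 (0.985) and Coq6 (0.983). Mecr makes the last step of mitochondrial fatty acid synthesis and Coq6 a step of coenzyme Q synthesis. Nearest to Perm1 were Ppp1r14c (0.973), Mrpl4 (0.967), Rtn2 (0.965), Taf3 (0.965) and Nicn1 (0.96).

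The wider circuit was read from lists of genes around the 10. Of 12 list genes called in MI vs. Sham 11 were lower, and the numbers tested are given list by list below. Over all genes tested, 10.3% were called lower and 12.1% higher there, and 8.16% were called lower in DAPA vs. Sham. With each library set to the same FPKM sum 7 of these 11 took a positive sign (Pparg, Rxrg, Prkab1, Kat2a, Mterf1, Top1mt and Acadvl), as did 2 of the 6 called lower in DAPA vs. Sham (Kat2a and Ckmt2). Relative to the median of all genes in that scaling, 0 of the called genes changed sign, and the falls and rises given next are relative to the typical gene. Among other receptors and coactivators that partner them, 16 of 18 could be tested in MI vs. Sham, and 2 were called lower and 0 higher, with 5 lower and 4 higher at p under 0.05 and a median log2 fold change of 0.17. Over all genes tested, 10.3% were called lower and 12.1% higher, with 24.4% lower and 24.5% higher at p under 0.05, so these shares were near the background. Pparg, the receptor of the adipogenic program, fell from 10.2 ± 1.74 to 3.55 ± 0.303 FPKM (log2 -1.29, limma adjusted p = 0.00243). It was 4.29 ± 0.721 FPKM in group DAPA, which was lower than in group Sham as well (log2 -1.08, limma adjusted p = 0.00798). Rxrg, the muscle-enriched retinoid X receptor and dimer partner of the PPARs, fell from 8.55 ± 0.57 to 3.53 ± 2.06 FPKM (log2 -1.18, limma adjusted p = 0.0252). Of the 16 tested in DAPA vs. MI, 0 passed at p under 0.05 in either direction.

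Of 24 kinases and factors upstream of PGC-1, 21 could be tested in MI vs. Sham, with 2 called lower, 0 higher, and 7 lower and 1 higher at p under 0.05. The share called lower was thus no more than the 10.3% of all genes. At p under 0.05 alone 24.4% of all genes were lower and 24.5% higher. Mapk11 (p38β), whose kinase family phosphorylates PGC-1α, fell from 7.92 ± 4.13 to 0.833 ± 0.186 FPKM (log2 -2.19, limma adjusted p = 0.00286). Mapk11 passed the filter there only through the Sham rats. Prkab1, a regulatory subunit of AMPK, fell from 37.8 ± 9.55 to 17.6 ± 1.94 FPKM (log2 -1.04, limma adjusted p = 0.00783). Mapk11 remained lower than Sham in group DAPA, at 1.76 ± 1.11 FPKM (log2 -1.67, limma adjusted p = 0.0169). At p under 0.05, 0 of 21 passed in DAPA vs. MI.

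The list of 14 genes that restrain PGC-1 or the receptors moved both ways in MI vs. Sham, with 1 called higher and 2 lower (beside 12.1% and 10.3% of all genes) and 3 each way at p under 0.05 (beside 24.5% and 24.4%). Hdac4, a repressor of MEF2, rose from 0.666 ± 0.394 to 2.56 ± 0.214 FPKM (log2 1.13, limma adjusted p = 0.0114), and passed the filter only through the MI rats. Kat2a (GCN5), which acetylates PGC-1α, fell from 28.8 ± 5.66 to 11.6 ± 2.04 FPKM (log2 -1.23, limma adjusted p = 0.00377), and Fbxw7, an adaptor of a ubiquitin ligase, fell from 7.2 ± 2.6 to 2.14 ± 0.512 FPKM (log2 -1.35, limma adjusted p = 0.00767). In DAPA vs. Sham 1 of the 14 was called higher and 1 lower, beside 9.54% and 8.16% of all genes. Kat2a was lower at 12.9 ± 1.08 FPKM (log2 -1.08, limma adjusted p = 0.00587) and Nr0b2 (SHP), a repressor without a DNA-binding domain, was higher at 5.71 ± 2.83 against 1.65 ± 0.534 FPKM (log2 1.28, limma adjusted p = 0.022). The count in DAPA vs. MI was 0 of 14 at p under 0.05. Of the 6 partners of NRF1 and GABP, 5 could be tested and 0 were called in any comparison. At p under 0.05 2 of 5 were higher in MI vs. Sham and in DAPA vs. Sham each, 0 lower, and 0 either way in DAPA vs. MI. Over all genes the shares higher were 24.5% in MI vs. Sham, 21.1% in DAPA vs. Sham and 4.59% in DAPA vs. MI.

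Genes that copy, transcribe and package mitochondrial DNA gave 9 lower and 2 higher of 21 tested at p under 0.05 in MI vs. Sham, with 2 called lower and a median of -0.29. All genes gave 24.4% lower and 24.5% higher at p under 0.05 and 10.3% called lower. The share called was thus near the background, while at p under 0.05 the share lower was above it and the share higher below it. The list as a set was not tested. Mterf1, which ends mitochondrial transcripts, fell from 17.3 ± 1.86 to 6.33 ± 0.802 FPKM (log2 -1.32, limma adjusted p = 0.00165) and was 7.48 ± 2.1 FPKM in group DAPA. Top1mt, the mitochondrial topoisomerase, fell from 7.36 ± 1.14 to 3.12 ± 0.598 FPKM (log2 -1.02, limma adjusted p = 0.00631). For DAPA vs. MI 1 of the 21 was higher and 0 lower at p under 0.05, with 16 of 21 estimates positive and a median of 0.19. Over all genes 4.59% were higher and 3.9% lower at p under 0.05, with 47.2% of estimates positive and a median of -0.02. The share higher was thus near the background, while the share of positive estimates was above it.

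Known ERR target genes, of which 18 of the 20 names looked for were found, were mostly genes of fatty acid oxidation, the citric acid cycle and respiration. In MI vs. Sham 3 of 18 were called lower and 0 higher, with 4 lower and 1 higher at p under 0.05 and a median of -0.44, beside 10.3% of all genes called lower and 24.4% lower at p under 0.05. Ckmt2, the mitochondrial creatine kinase of striated muscle, fell from 533 ± 128 to 103 ± 60.4 FPKM (log2 -2.59, limma adjusted p = 0.0103). Acadvl, which starts the oxidation of very long-chain fatty acids, fell from 105 ± 20.3 to 44.5 ± 13.4 FPKM (log2 -1.24, limma adjusted p = 0.0113). Ucp3, an uncoupling protein of muscle, was at 2.07 ± 0.818 FPKM in group Sham and 0.121 ± 0.0972 in group MI (log2 -1.43, limma adjusted p = 0.00607). It passed the filter only through the Sham rats, also in DAPA vs. Sham.

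In DAPA vs. MI 8 of 17 ERR targets were higher and 0 lower at p under 0.05, 2 were called higher, and 16 of 17 estimates were positive with a median of 0.93. Of the 8, Acadm, Cycs, Slc25a4, Sdhb and Etfdh overlapped between the groups. Ckmt2, Acadvl and Hadha did not, beside 13.8% of all genes without overlap. Over all genes 4.59% were higher and 3.9% lower at p under 0.05, 0.951% were called higher, and 47.2% of estimates were positive. Ckmt2 was at 248 ± 89.5 FPKM (log2 1.45, limma adjusted p = 0.558) and Slc25a4, the adenine nucleotide translocator of heart, at 1272 ± 506 against 539 ± 235 FPKM (log2 1.26, limma adjusted p = 0.558). The 13 cardiomyocyte markers had positive estimates in 13 of 13 with a median of 1.29 in the same comparison, and their part in the result was not tested. In DAPA vs. Sham 4 of 18 ERR targets were called higher, beside 9.54% of all genes, among them Acadm (log2 1.07), Cycs (1.16) and Mb (1.28), with limma adjusted p from 0.0153 to 0.0347 for these. Ckmt2 (-1.13) and Ucp3 (-1.29) were called lower there, beside 8.16% of all genes. Here the cardiomyocyte markers had a median of 0.84, with 10 of 13 positive.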

How the data were processed

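RNA-seq of left ventricles gave 1 column of values per sample, with 3 samples per group. The authors deposited FPKM values, already divided by transcript length and by a library denominator. The submitters' processing notes name HISAT2 2.0.5, StringTie 1.3.3b, featureCounts 1.5.0-p3 and DESeq2, without roles, and the genome build is not given in the sources used here. The labels speak of biological replicates. Columns were matched to samples by name, and 0 columns of per-sample values were left unused.

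Pairs of groups were compared by limma 3.58.1 (R 4.3.3) on log2(FPKM + 1), with an intensity trend, over genes with at least 1 FPKM in at least 3 of the 6 rats, adjusted by Benjamini-Hochberg over all genes tested. Fold changes on this scale understate changes of low genes. Genes below the filter, ratios and marker-referenced values were tested by exact permutation of the rats, two-sided. Whole reads were recovered from the steps of the FPKM values (18896 of 18896 genes above 0 in at least 4 libraries) and used in a limma-voom alternative. Intervals and floors cover counting error only. The scripts were tested on simulated data. Other alternatives were a pseudocount of 0.1, no filter, all 9 rats in 1 fit, a replicate block, other library scalings, no trend, and each rat left out.

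The 10 genes and all lists were chosen with earlier results of these data known. Text names every one of the 10, each list gene called in a comparison (at most 6 per list and comparison), and for a called gene the 5 most correlated genes. An item of these lists is not reported here. Python 3.11.15 with numpy 2.4.6, pandas 2.3.3, scipy 1.17.1 and matplotlib 3.10.9 was used.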

Additional observations from a re-analysis of the deposited data

How the results depend on the processing

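The library scaling had the widest effect. With each library set to the same FPKM sum, 6 of the tested genes of the 10 were called higher and 0 lower in MI vs. Sham, 0 higher in DAPA vs. MI and 5 higher in DAPA vs. Sham. With scaling to all recovered reads, chosen after seeing the data, these counts were 2, 0, 0 and 4. All genes called moved too, to 8801 higher and 220 lower and to 5972 and 319 in MI vs. Sham, to 44 and 492 and to 61 and 280 in DAPA vs. MI, and in DAPA vs. Sham to 6566 and 168 and to 4419 and 249. In MI vs. Sham the same-sum scaling turned Ppargc1b (0.0389), Perm1 (1.23), Esrra (1.28), Tfb2m (0.33) and Nrf1 (1.11), and scaling to all reads turned Perm1 (0.84), Esrra (0.85) and Nrf1 (0.70) and left Tfb2m at -0.08. In DAPA vs. MI the same-sum scaling turned Tfam (-0.0044) and Nrf1 (-0.33), the same sum without the mitochondrial genome turned Nrf1 (-0.0417), as did scaling to all reads (-0.19), and Perm1 was 0.77 and 0.87. In DAPA vs. Sham the same-sum scaling turned Ppargc1b (0.27), Tfb2m (0.65) and Nrf1 (0.78), and scaling to all reads turned Ppargc1b (0.092), Tfb2m (0.36) and Nrf1 (0.51).

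In MI vs. Sham 2 genes, Tfb2m and Ppargc1b, were called lower with a pseudocount of 0.1, with the same sum without the mitochondrial genome and with limma-voom. Leaving out a rat, the count called lower in MI vs. Sham ranged from 0 to 1, and the counts called higher in both comparisons with DAPA from 0 to 1. Leaving out a rat also turned values near 0, which then ranged from -0.36 to 0.38 for Perm1, -0.43 to 0.0335 for Esrra, -0.007 to 0.39 for Esrrg and -0.0811 to 0.15 for Esrrb in MI vs. Sham, from -0.0435 to 0.0921 for Nrf1 in DAPA vs. MI, and from -0.0267 to 0.44 for Esrra in DAPA vs. Sham. Without 1 rat, all genes called in DAPA vs. MI ranged from 37 to 408 higher and from 90 to 261 lower, both lowest without MI replicate 2.

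The replicate numbers come from different animals, the labels give no pairing between groups, and the main test did not pair the samples. The deviations of same-numbered rats correlated at 0.02, -0.36 and -0.29 in DAPA vs. MI and 0.121, 0.21 and -0.0152 in DAPA vs. Sham. Their mean was -0.211 in DAPA vs. MI, beside 0.106 for rats of different number, and 0.105 in DAPA vs. Sham, beside -0.0524. With 3 rats per group these values cannot settle whether same-numbered samples belong together. With a replicate block Perm1 kept its log2 fold change of 1.03 in DAPA vs. MI but lost its call, so that 0 of the 10 genes were called, and all genes called higher went from 126 to 71. A library factor nearly cancels in a ratio within a rat, so the library scalings could hardly change its sign. The ratios Tfb2m/Tfam and Gabpa/Nrf1 kept their sign in all comparisons and alternatives run. The cause of these changes was not tested. With 3 rats per group no exact test could pass 0.05, and Ppargc1a and Esrrb rest on few reads.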
